A study of Mus musculus with 40 samples.

Results

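The 10 genes described here belong to the TNF, TWEAK, and NF-kB pathways: the ligands Tnf and Tnfsf12, the receptors Tnfrsf1a, Tnfrsf1b, and Tnfrsf12a, the NF-kB subunits Nfkb2 and Relb, the inhibitors Nfkbia and Tnfaip3, and the target gene Icam1. They were chosen by name, with earlier results of these data known. All 10 of them passed the filter on low counts, out of 20297 genes that did so and 55487 genes in the table of the whole series. TNF is a cytokine of macrophages and other immune cells that signals through a broadly expressed receptor (TNFR1, the product of Tnfrsf1a) and a more restricted one (TNFR2, the product of Tnfrsf1b). TWEAK, the product of Tnfsf12, binds Fn14, the product of Tnfrsf12a, a receptor that is low in healthy liver and is known for its induction in injured tissue and for driving the expansion of liver progenitor cells. Both receptors activate NF-kB. In the canonical branch IκBα (Nfkbia) is degraded and frees dimers that hold RelA, and in the noncanonical branch the kinase NIK leads to processing of the Nfkb2 product, which then pairs with RelB.

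Whole livers were taken from female hepatocyte-specific Nampt knockout (HNKO) mice, in which Cre under the albumin promoter deletes floxed Nampt in hepatocytes and leaves it in the other cells of the liver, and from floxed WT littermates, on a C57BL/6JBomTac background. The mice were 9 weeks old and received a purified diet (PD) over 3, 6, 12, or 21 days, and each library was made from 1 liver. The comparison asks how these genes differed between HNKO and WT livers after each period on the diet. WT groups held 5, 4, 5, and 5 livers and HNKO groups 5, 5, 6, and 3 livers at days 3, 6, 12, and 21. All 38 livers came from mice on PD, so no group without it enters the comparisons. A further 2 HNKO libraries of day 21 (17 and 18) are marked in the labels as having failed quality control and were left out. The 38 libraries held 16151037 to 64181492 counts each, and levels are given as log2 CPM, which is the read count scaled to the size of the library. Nampt transcripts fell by 0.93 on the log2 scale at day 3 (SE 0.23, edgeR adjusted p = 0.0193), by 0.90 at day 6 (SE 0.24, adjusted p = 0.0128), and by 0.82 at day 12 (SE 0.22, adjusted p = 0.0208), and the difference at day 21 was -0.69 (SE 0.27, adjusted p = 0.161). The hepatocyte markers Alb, Ttr, Apoa1, Apoc3, and Hnf4a were found in all 38 libraries, with a summed level of 50902 to 131431 CPM.

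Fn14, the TWEAK receptor, showed the widest difference of the 10 genes over the mean of the 4 days, and 6 of them (Tnf, Tnfrsf12a, Nfkb2, Relb, Tnfaip3, and Icam1) were higher in HNKO livers by 1.62-fold or more over that mean. Genes were called at a Benjamini-Hochberg adjusted p under 0.05 over all tested genes, and a Benjamini-Hochberg value is meant wherever an adjusted p is given. At day 3, only Tnfrsf12a of the 10 genes was called higher, against a background of 2.95% of all tested genes called higher and 1.71% called lower. At day 6, 7 genes were called higher (Tnf, Tnfrsf1a, Tnfrsf12a, Nfkb2, Relb, Tnfaip3, and Icam1), against 8.42% higher and 4.37% lower among all tested genes. At day 12, Icam1 was called, against 4.56% higher and 3.27% lower. At day 21, with 3 HNKO livers, none of the 10 passed in edgeR, against 2.21% higher and 0.916% lower among all tested genes. An unadjusted p under 0.05 in edgeR was reached by 6 of the 10 and by 3655 of the 20297 tested genes. DESeq2 called 2 of the 10 (Tnfrsf12a and Icam1), and its share over all tested genes is not given here. Over the mean of the 4 days, 7 genes were called higher (the 6 above and Tnfrsf1b), against 19.2% higher and 17.3% lower. None of the 10 was called lower at any day or over the mean. The median log2 fold change of the 10 genes was 0.43, 1.04, 0.60, and 0.65 at days 3, 6, 12, and 21, beside 0.01, -0.01, 0.00, and -0.01 for all tested genes.

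**Figure D1:**
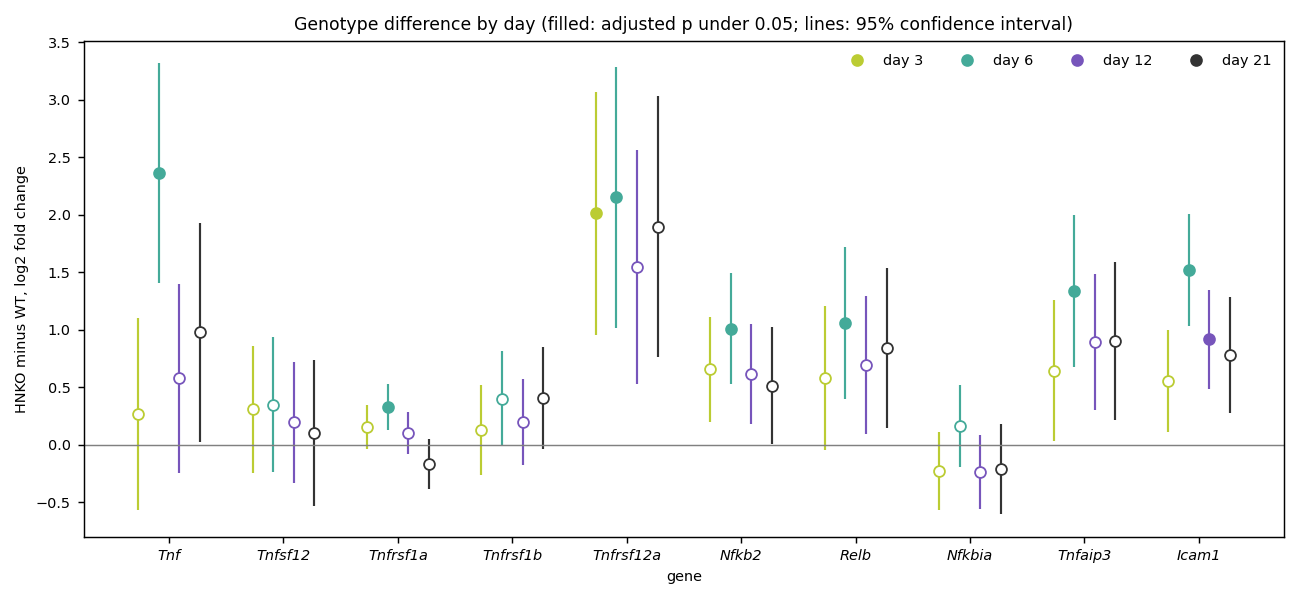
Log2 fold change (HNKO minus WT, y axis) of each of the 10 genes (x axis) at days 3, 6, 12, and 21, with 95% confidence intervals from the edgeR fit and filled points for an adjusted p under 0.05. Tnfrsf12a lies at 1.55 or above at every day, Tnf rises to 2.37 at day 6, and Nfkbia and Tnfsf12 stay within 0.35 of 0.

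The differences at single days were not shown to differ between days. When edgeR tested whether the genotype difference changed with the day, it called 0 of the 10 genes and 0% of all tested genes, although 966 genes had an unadjusted p under 0.05. Among these were Tnf (unadjusted p = 0.0118, adjusted p = 0.978), Tnfrsf1a (unadjusted p = 0.0170, adjusted p = 0.996), and Icam1 (unadjusted p = 0.0340), which did not pass after adjustment either. In WT livers, a change over the 4 days was called for 0 of the 10 genes and for 5.84% of all tested genes in edgeR, with 1 of the 10, Tnfrsf1a, at an unadjusted p under 0.05. In HNKO livers, it was called for Tnf (adjusted p = 0.0435) and Icam1 (adjusted p = 0.0214) and for 7.9% of all tested genes. Both of these calls were lost without HNKO library 29 and without HNKO library 30, both of day 6, and both were kept in 22 of the 38 fits that left out 1 library.

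Per kb of exon, the 10 genes covered a wide range in WT livers. Nfkbia and Tnfrsf1a were at the top, with WT medians of 28.8 and 26.04 CPM per kb, and their ranges over the 19 WT livers overlapped (19.9 to 38.5 and 20.9 to 33.3). Tnfrsf1b followed with a median of 10.8. Icam1 (3.01), Tnfsf12 (2.51), Nfkb2 (2.12), and Tnfrsf12a (1.62) had WT ranges that overlapped each other. Tnfaip3 (0.778) and Relb (0.771) were alike within their spread, and Tnf was lowest at 0.238. In HNKO livers, the medians were 4.02 CPM per kb for Tnfrsf12a and 5.48 for Icam1, and Tnfrsf12a reached 24.5 CPM per kb in the highest liver, close to the WT median of Tnfrsf1a.

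**Figure D2:**
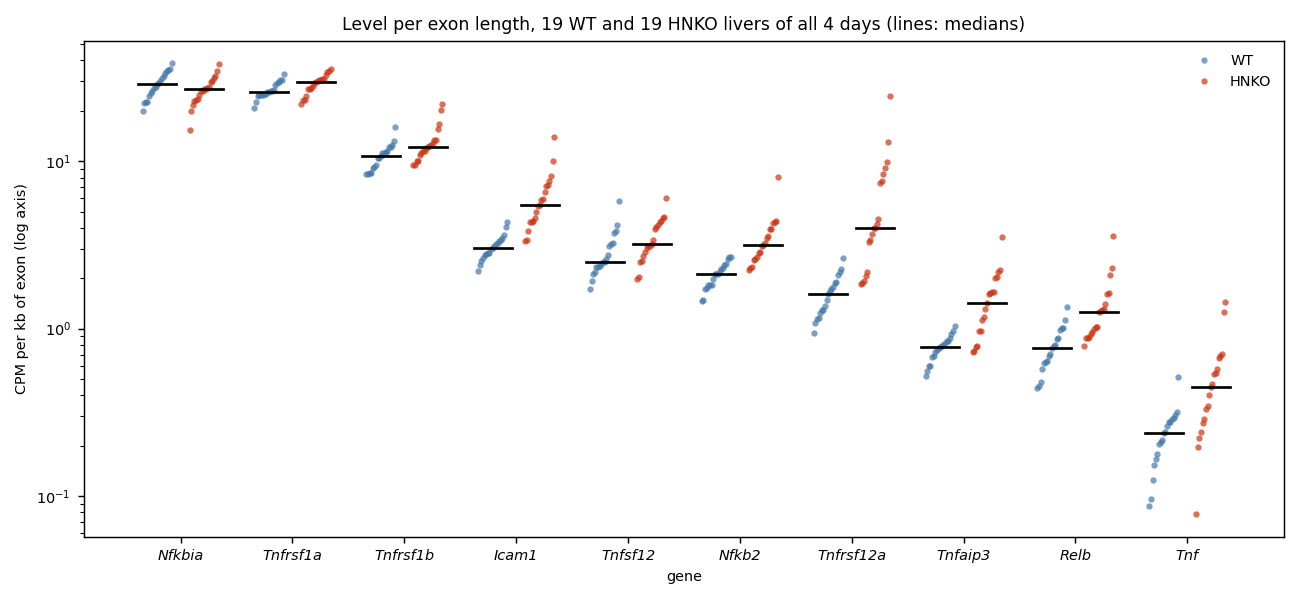
CPM per kb of exon on a log axis (y) for each gene (x), with a point for each of 19 WT and 19 HNKO livers of all 4 days and a line at each median. Nfkbia and Tnfrsf1a lie highest in both genotypes, and the HNKO points of Tnfrsf12a spread from 1.86 to 24.5.

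Tnf, which encodes the cytokine that names the family (ENSMUSG00000024401.14, chromosome 17, 35199381 to 35202007, minus strand, GRCm38), was scarce, with 3 to 101 reads per library. At day 6, the WT livers were at -1.26, -1.85, -1.46, and -1.62 log2 CPM and the HNKO livers at -0.70, 0.26, 1.28, 1.08, and 0.23. All 5 HNKO livers lay above all 4 WT livers. Tnf was thus 5.15-fold higher (log2 fold change 2.37, SE 0.47, adjusted p = 0.00104), and the log2 value was between 2.11 and 2.56 when any 1 library of the day was left out, with the call kept in 9 of 9 fits. At day 3, WT livers ranged from -1.24 to -0.13 and HNKO livers from -1.20 to 0.03, which overlap over most of their range (log2 fold change 0.26, SE 0.41, adjusted p = 0.767, from 0.10 without HNKO library 3 to 0.50 without WT library 1). At day 12, the 6 HNKO livers ranged from -2.32 to 0.30 with a median of -0.90, so that 2 lay above and 1 below all WT livers (0.58, SE 0.40, adjusted p = 0.394, and 0.22 without HNKO library 11). At day 21, the HNKO livers were at -0.06, -1.09, and -0.30 and the WT livers between -2.12 and -0.92 (0.98, SE 0.47, adjusted p = 0.260).

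Tnfsf12, which encodes TWEAK (ENSMUSG00000097328.7, chromosome 11, 69686250 to 69695849, minus strand), was called at no day. Its group means lay between 1.96 and 2.23 log2 CPM in WT and between 2.08 and 2.55 in HNKO livers, and the log2 fold change was 0.31, 0.35, 0.19, and 0.10 at the 4 days (adjusted p = 0.556, 0.482, 0.690, and 0.912). Over the mean of the 4 days it was 0.24 (SE 0.14, 95% confidence interval -0.05 to 0.52, adjusted p = 0.198). Levels of Tnfsf12 moved with the numbering of the libraries in the labels, which runs in 2 series (1 to 21 and 22 to 41). It averaged 2.52 ± 0.43 (SD, n = 18) in the first and 1.98 ± 0.25 (SD, n = 20) in the second series. With the series as a covariate, the mean difference was 0.33 and passed the threshold (adjusted p = 0.00839). It also passed without WT library 16 of day 12 alone (0.33, adjusted p = 0.0350). That library moved the difference at day 12 from 0.19 to 0.58 when it was left out, WT library 33 moved it to 0.05, and without HNKO library 7 the difference at day 6 was 0.14. The difference at day 3 ran from 0.20 to 0.31 over the 6 alternative fits, and from 0.22 to 0.42 when any 1 library of the day was left out. At day 21, single libraries moved the difference between 0.04 and 0.20, and with the series as a covariate it was 0.47 (adjusted p = 0.222). Of the exonic bases of Tnfsf12, 48.25% are shared with the read-through gene Tnfsfm13 on the same strand, so counts could be split between them.

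Tnfrsf1a, which encodes the receptor through which TNF starts most of its signals (ENSMUSG00000030341.17, chromosome 6, 125349362 to 125362484, plus strand), was called at day 6 only. The WT livers then were at 6.01, 6.00, 6.27, and 6.04 log2 CPM and the HNKO livers at 6.52, 6.34, 6.42, 6.48, and 6.32. The groups did not overlap, but the gap between them was 0.05, and the log2 fold change was 0.33 (SE 0.10, 1.26-fold, adjusted p = 0.0241). The call was lost without WT library 8 (adjusted p = 0.0770), WT library 10 (adjusted p = 0.0776), or WT library 28 (adjusted p = 0.0594), with the 2 libraries that failed quality control included (adjusted p = 0.191), and the log2 fold change was 0.30 or more in all 9 fits that left out a library of the day. The differences at days 3, 12, and 21 were 0.16, 0.10, and -0.17 (adjusted p = 0.346, 0.508, and 0.447). That of day 12 ran from 0.06 without HNKO library 12 to 0.17 without HNKO library 32, and that of day 21 was -0.08 without HNKO library 40 and -0.36 with the 2 libraries that failed quality control (adjusted p = 0.0955).

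Tnfrsf1b, the receptor with the stronger tie to immune and endothelial cells (ENSMUSG00000028599.10, chromosome 4, 145213463 to 145246870, minus strand), passed the threshold at none of the days. Levels ran from 5.01 to 5.94 log2 CPM in WT and from 5.19 to 6.39 in HNKO livers. The log2 fold change was 0.13, 0.40, 0.20, and 0.41 at the 4 days (adjusted p = 0.758, 0.205, 0.542, and 0.331) and 0.28 over their mean (SE 0.10, adjusted p = 0.0248). That last call rested on HNKO library 38 of day 21, at 6.28, without which it was 0.21 (adjusted p = 0.0935). Without that library the difference at day 21 was 0.06, without HNKO library 35 that at day 12 was 0.03, and that at day 3 ran from 0.06 without WT library 26 to 0.22 without WT library 5.

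Tnfrsf12a, which encodes Fn14 (ENSMUSG00000023905.15, chromosome 17, 23675445 to 23677468, minus strand), had the widest difference of the 10 genes over the mean of the 4 days, where it was 3.74-fold higher in HNKO livers (log2 fold change 1.90, SE 0.27, adjusted p = 1.34e-06). At day 3, the WT livers were at 1.36, 1.55, 2.04, 1.30, and 1.81 log2 CPM and the HNKO livers at 4.27, 3.85, 1.89, 2.68, and 4.15. The HNKO livers spread over 2.37 log2 units, and 4 of 5 lay above all WT livers. On average they were 4.04-fold higher (log2 fold change 2.01, SE 0.52, adjusted p = 0.0223), and the call was lost without WT library 5 (adjusted p = 0.0505), WT library 25 (adjusted p = 0.0638), HNKO library 2 (adjusted p = 0.0759), or HNKO library 23 (adjusted p = 0.0693).

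At day 6, Tnfrsf12a was at 1.68, 1.37, 2.38, and 2.10 in WT livers and at 1.87, 3.14, 5.57, 4.02, and 2.84 in HNKO livers. The HNKO liver of library 29 held 2031 reads of the gene, and that of library 6 lay among the WT livers. The log2 fold change of 2.15 (SE 0.56, adjusted p = 0.00951) became 1.26 without library 29 (adjusted p = 0.129), so the call at day 6 rested on that liver. The call was also lost in a fit of only the 2 groups of the day (2.14, adjusted p = 0.0738). At day 12, the HNKO livers ranged from 1.93 to 3.90 with a median of 2.85 and the WT livers were at 1.21, 1.19, 0.92, 1.45, and 1.91. All 6 HNKO livers lay above all 5 WT livers, and the difference was just short of the threshold (1.55, SE 0.50, adjusted p = 0.0505). In edgeR with the label series as a covariate it was 1.57 (adjusted p = 0.0442). Over the 6 alternative fits in edgeR and DESeq2, the adjusted p ran from 0.0221 to 0.0643, under the threshold in 4. At day 21, the HNKO livers were at 4.66, 2.11, and 2.95 and the WT livers at 1.89, 2.15, 1.73, 1.76, and 1.11. The difference was 1.90 (SE 0.56, adjusted p = 0.0520), and without HNKO library 37 it was 0.87 (adjusted p = 0.784). In the mean over the 4 days, the call was kept in each of the 38 fits that left out 1 library, with values between 1.66 and 2.02.

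**Figure D3:**
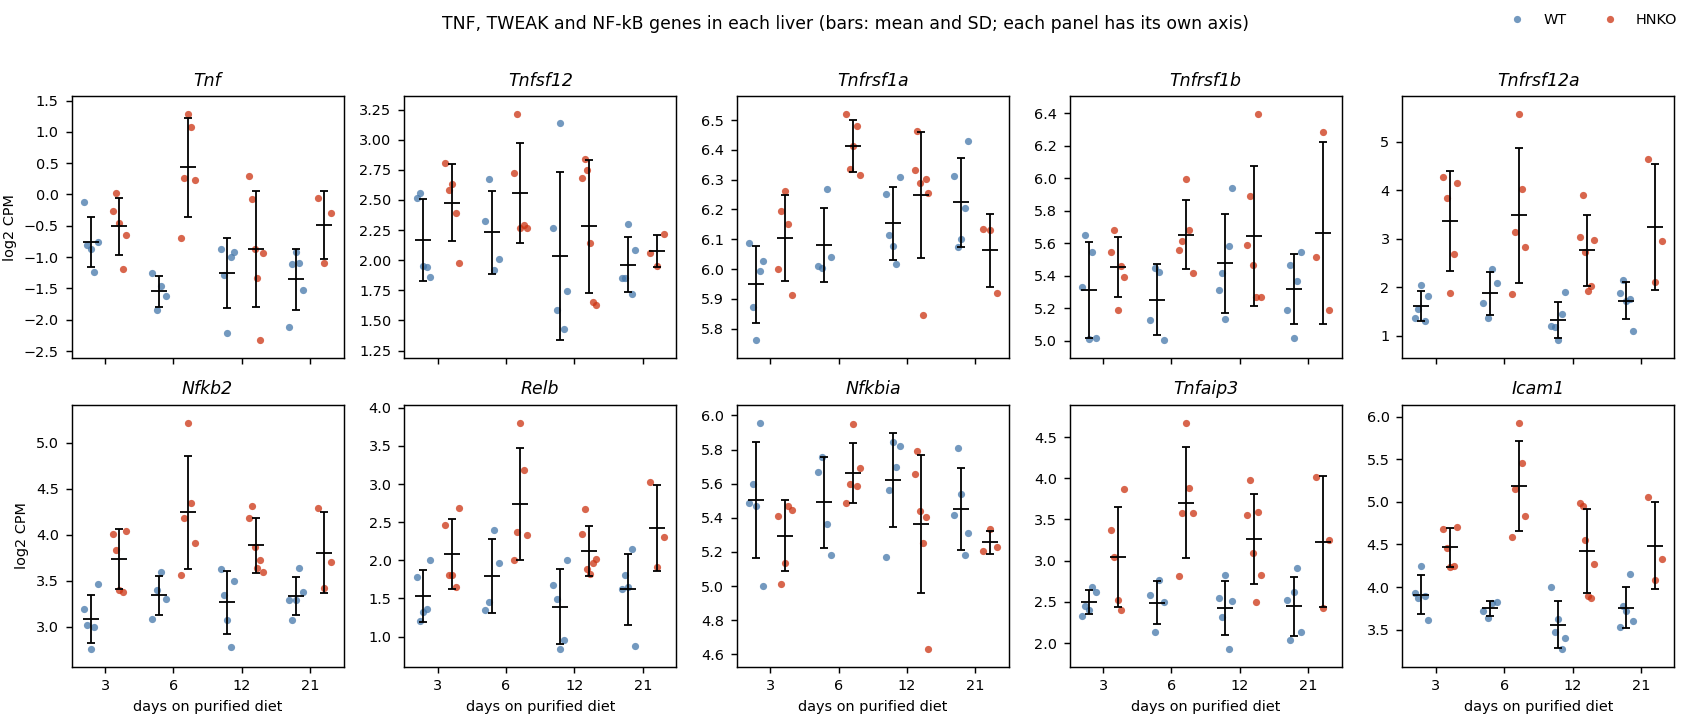
Log2 CPM (y axis, its own range in each panel) of the 10 genes in each WT and HNKO liver by days on PD (x axis), with the mean and SD of each group as bars. The HNKO livers of Tnfrsf12a spread from 1.87 to 5.57 at day 6, and those of Tnf, Tnfaip3, and Icam1 lie above all WT livers at that day.

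Nfkb2 and Relb, the pair of subunits of the noncanonical branch, were both called at day 6 and over the mean of the 4 days. Nfkb2 (ENSMUSG00000025225.15, chromosome 19, 46304320 to 46312385, plus strand) was at 3.09, 3.40, 3.59, and 3.30 log2 CPM in the WT and at 3.57, 4.18, 5.22, 4.35, and 3.91 in the HNKO livers of day 6. The HNKO livers lay above all WT livers in 4 of 5 cases, and the remaining one, library 6, was 0.03 below the highest WT liver. On the opposite strand, Psd and AC114539.1 overlap 6.52% and 11.6% of the exonic bases of Nfkb2, and the use of the strand in counting is not given in the sources used here. Nfkb2 was 2.02-fold higher (log2 fold change 1.01, SE 0.24, adjusted p = 0.00464) and stayed called in 9 of 9 fits that left out a library of the day, while a fit of only the 2 groups of that day gave an adjusted p of 0.0590. The differences at days 3, 12, and 21 were 0.66, 0.62, and 0.52 (adjusted p = 0.0785, 0.0658, and 0.271). Without HNKO library 37, Nfkb2 at day 21 was 0.25 higher. The mean of the 4 days was 0.70 (SE 0.12, adjusted p = 1.50e-05).

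Relb (ENSMUSG00000002983.17, chromosome 7, 19606217 to 19629438, minus strand) was at 1.35, 1.45, 2.40, and 1.97 in the WT and at 2.01, 2.37, 3.80, 3.18, and 2.34 in the HNKO livers of day 6. Only 2 HNKO livers lay above the highest WT liver. Relb was 1.06 higher on the log2 scale (SE 0.33, adjusted p = 0.0283), and the call was lost in 5 of 9 fits that left out 1 library, namely WT library 8 (adjusted p = 0.107), WT library 10 (adjusted p = 0.0970), WT library 28 (adjusted p = 0.0501), HNKO library 29 (0.71, adjusted p = 0.192), or HNKO library 30 (adjusted p = 0.0540). It was also lost with only the 2 groups of the day (adjusted p = 0.115) and with the 2 libraries that failed quality control (adjusted p = 0.196). The differences at days 3, 12, and 21 were 0.58, 0.69, and 0.84 (adjusted p = 0.282, 0.137, and 0.174). Without HNKO library 37, the difference at day 21 was 0.49. In the fit of all 38 libraries, over the mean of the 4 days, Relb was 1.73-fold higher (0.79, SE 0.16, adjusted p = 1.77e-04), a call kept in all 38 fits without 1 library.

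Of the inhibitors, Tnfaip3 was called higher at day 6 and Nfkbia at no day. Nfkbia (ENSMUSG00000021025.8, chromosome 12, 55489410 to 55492647, minus strand), which encodes the inhibitor that holds RelA dimers in the cytoplasm, had log2 fold changes of -0.23, 0.16, -0.23, and -0.21 at the 4 days (adjusted p = 0.458, 0.608, 0.375, and 0.623). When 1 library of the day was left out, they ran from -0.34 to -0.11 at day 3, from 0.07 to 0.26 at day 6, from -0.33 to -0.12 at day 12, and from -0.27 to -0.11 at day 21. Over their mean the difference was -0.13 with a 95% confidence interval from -0.30 to 0.05 (adjusted p = 0.266), and groups overlapped at every day, with WT livers from 5.003 to 5.96 and HNKO livers from 4.63 to 5.95 log2 CPM.

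Tnfaip3 (ENSMUSG00000019850.11, chromosome 10, 19000910 to 19015657, minus strand), which encodes A20, an enzyme that edits ubiquitin chains and ends NF-kB signals, was 1.92-fold higher over the mean of the 4 days (0.94, SE 0.16, adjusted p = 1.56e-05). At day 6, the WT livers were at 2.58, 2.13, 2.76, and 2.49 and the HNKO livers at 2.81, 3.58, 4.67, 3.88, and 3.58. The groups did not overlap, with 0.05 between the nearest livers, and the log2 fold change was 1.34 (SE 0.33, 2.52-fold, adjusted p = 0.00599), called in 9 of 9 fits without 1 library. At day 12, 5 of 6 HNKO livers lay above all WT livers, with a range of 2.50 to 3.98 (0.90, SE 0.29, adjusted p = 0.0503). Over the 6 alternative fits in edgeR and DESeq2, its adjusted p at day 12 ran from 0.0253 to 0.0705, under the threshold in 2. The differences at days 3 and 21 were 0.64 and 0.90 (adjusted p = 0.212 and 0.133), and they were 0.39 without HNKO library 23 of day 3 and 0.44 without HNKO library 37 of day 21.

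Icam1, a target gene whose product lets leukocytes adhere to endothelium and hepatocytes (ENSMUSG00000037405.8, chromosome 9, 21015985 to 21028817, plus strand), was called at days 6 and 12. At day 6, the WT livers were at 3.72, 3.64, 3.81, and 3.83 and the HNKO livers at 4.58, 5.15, 5.92, 5.46, and 4.83, so that the lowest HNKO liver lay 0.76 above the highest WT liver. Icam1 was 2.87-fold higher (log2 fold change 1.52, SE 0.24, adjusted p = 1.05e-04), and the log2 value was 1.32 without library 29 (adjusted p = 0.00105). At day 12, the HNKO livers ranged from 3.87 to 4.98 with a median of 4.42 and the WT livers from 3.28 to 3.996 (0.92, SE 0.21, adjusted p = 0.00889, called in 11 of 11 fits without 1 library). The differences at days 3 and 21 were 0.56 and 0.78 (adjusted p = 0.131 and 0.0701), with 0.46 at day 21 without HNKO library 37. Over the mean of the 4 days Icam1 was higher by 0.94 (SE 0.11, adjusted p = 1.20e-07), the smallest p-value of the 10 genes. The antisense gene Gm47079, with a median of 1 read, overlaps 11.7% of its exonic bases.

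Without the count model, the HNKO livers lay above all WT livers for 0, 4 (Tnf, Tnfrsf1a, Tnfaip3, and Icam1), 1 (Tnfrsf12a), and 0 of the 10 genes at days 3, 6, 12, and 21, beside 2.31%, 8.08%, 2.65%, and 7.25% of all tested genes. In exact two-sided permutation tests of each gene at each day, the smallest p-value adjusted over the 40 tests was 0.0705. The smallest p-values that such a test can give with these group sizes are 0.00794, 0.00794, 0.00216, and 0.0179 at days 3, 6, 12, and 21, so no single gene could pass the adjustment on its own, and the tests say little of single genes. Within the label series, 7 comparisons of HNKO and WT livers of 1 day could be made, since all used HNKO livers of day 21 fall in the second series. Tnfrsf12a, Nfkb2, Relb, Tnfaip3, Icam1, and Tnfsf12 were higher in HNKO livers in 7 of 7, Tnf in 6, Tnfrsf1a and Tnfrsf1b in 5, and Nfkbia in 3.

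To set these differences beside sequence, the 150 bases before the RefSeq start sites (GRCm38.p6) are shown for Nfkb2 (its first start site), Tnfaip3 (its first start site), and Nfkbia, which hold matches to the kappaB decamer, and for Tnfrsf12a and Icam1, the genes with the widest difference and the smallest p-value over the mean of the 4 days, which hold none. All are on the strand of the gene, and capitals mark matches to the decamer on either strand, overlapping ones joined.
Nfkb2 (chr19:46304587-46304736, plus strand): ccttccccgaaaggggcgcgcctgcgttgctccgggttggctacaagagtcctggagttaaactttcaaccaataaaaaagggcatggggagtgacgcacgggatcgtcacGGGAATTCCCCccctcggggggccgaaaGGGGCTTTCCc
Tnfaip3 (chr10:19015411-19015560, minus strand): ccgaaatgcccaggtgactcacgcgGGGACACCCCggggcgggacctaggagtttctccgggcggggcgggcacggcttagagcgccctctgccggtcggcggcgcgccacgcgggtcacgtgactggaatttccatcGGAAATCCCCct
Nfkbia (chr12:55492648-55492797, minus strand): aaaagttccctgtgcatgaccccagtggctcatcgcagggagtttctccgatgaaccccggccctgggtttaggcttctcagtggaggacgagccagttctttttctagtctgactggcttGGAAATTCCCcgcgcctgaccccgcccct
Tnfrsf12a (chr17:23677450-23677599, minus strand): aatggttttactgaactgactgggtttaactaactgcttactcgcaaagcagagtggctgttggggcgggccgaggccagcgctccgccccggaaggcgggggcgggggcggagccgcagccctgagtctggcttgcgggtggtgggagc
Icam1 (chr9:21015790-21015939, plus strand): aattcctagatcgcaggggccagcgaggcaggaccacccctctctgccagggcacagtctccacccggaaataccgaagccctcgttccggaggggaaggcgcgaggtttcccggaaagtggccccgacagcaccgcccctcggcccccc

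Promoters of 300 bases (250 before and 50 after each start site) were found in RefSeq for 8 of the 10 genes, 11 promoters in all. These were searched on both strands for the kappaB decamer consensus, which was found in 4.51% of 32851 promoters of this length. Decamer matches stood in the 3 promoters of Nfkb2 (at 3, 2, and 1 positions, a pair of the first 3 overlapping and the last promoter sharing its position with the one before), in that of Nfkbia (1), and in the first promoter of Tnfaip3 (2), and in none of those of Tnf, Tnfrsf1a, Tnfrsf1b, Tnfrsf12a, and Icam1. Of the genes with matches, Nfkb2 and Tnfaip3 were called higher at day 6 and Nfkbia was not, and of those without, Tnf, Tnfrsf1a, Tnfrsf12a, and Icam1 were. A match is a string of letters in this window and says nothing of binding.

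Livers of 1 group differed from each other in the same direction in several of the genes, more closely so among HNKO than among WT livers. After the mean of each genotype and day was subtracted, 14 of 45 gene pairs correlated over the 38 livers with an adjusted p under 0.05 for both Pearson's r and Spearman's rho (100000 permutations within groups, two-sided, adjusted over the 45 pairs). All 14 were positive and lay among Tnf, Tnfrsf12a, Nfkb2, Relb, Tnfaip3, and Icam1, which form 15 pairs. The pair of Tnf and Tnfaip3 did not pass (r = 0.40, permutation p = 0.0427, adjusted p = 0.120, rho = 0.39, permutation p = 0.0390, adjusted p = 0.110). The highest r was that of Nfkb2 and Relb (r = 0.83, permutation p = 1e-05, the smallest that these permutations can give, adjusted p = 1.12e-04, rho = 0.79, permutation p = 1e-05, adjusted p = 2.25e-04), and it was 0.78 without HNKO libraries 29 and 6, the pair farthest from the median, and 0.78 and 0.87 within the first and second label series. Tnfrsf12a followed Relb with r = 0.79 (permutation p = 1e-05, adjusted p = 1.12e-04, rho = 0.77, permutation p = 1e-05, adjusted p = 2.25e-04) and Icam1 with r = 0.77 (permutation p = 3e-05, adjusted p = 1.69e-04, rho = 0.71, permutation p = 7e-05, adjusted p = 6.30e-04). Without libraries 29 and 6 these were 0.72 and 0.68. Over the 14 pairs, r without the 2 farthest livers was between 0.56 and 0.78. Within the genotypes, r of the 14 pairs ran from 0.67 to 0.94 over the 19 HNKO livers and from 0.03 to 0.68 over the 19 WT livers. It was higher over the HNKO livers in all 14. Between Tnfrsf12a and Icam1, r was 0.89 over the 19 HNKO and 0.07 over the 19 WT livers, and between Nfkb2 and Relb it was 0.93 and 0.68. The difference between the genotypes was not tested.

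**Figure D4:**
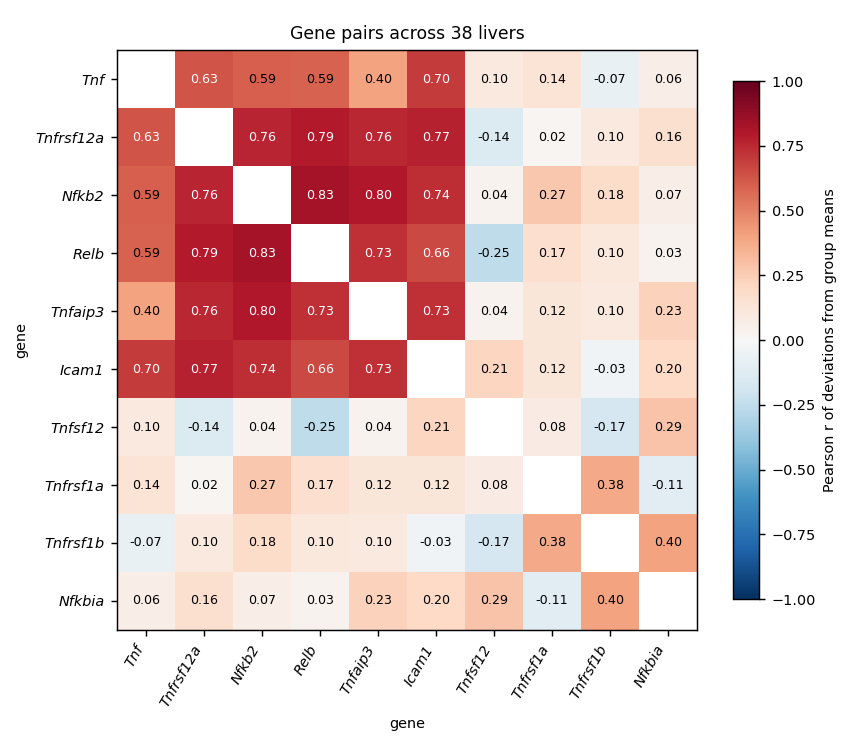
Pearson r of deviations from the group means over 38 livers for each pair of the 10 genes (both axes), coloured from blue (-1) through white (0) to red (1). The 6 genes from Tnf to Icam1 form a red block with r from 0.40 to 0.83, and Tnfsf12, Tnfrsf1a, Tnfrsf1b, and Nfkbia lie outside it.

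Among all tested genes, the one whose deviations correlated best with those of Tnfrsf12a over the 38 livers was Spp1 (Pearson r = 0.91), which encodes osteopontin, a matrix protein of ductular cells and macrophages. That of Nfkb2 was Nfkb1 (r = 0.87), the subunit of the canonical branch, that of Tnfaip3 was Tlr1 (r = 0.85), a receptor of the innate immune system. That of Icam1 was Csf3r (r = 0.84), the G-CSF receptor of neutrophils. Relb was closest to Cmtm7 (r = 0.88), Tnf to Steap4 (r = 0.73), Tnfrsf1b to Klf2 (r = 0.79), Tnfsf12 to Sf3a1 (r = 0.90), Tnfrsf1a to Gm7694 (r = 0.80), and Nfkbia to Gm15889 (r = 0.74). These are descriptions over livers that share groups and depth, and each is the highest of 20296 values.

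The other genes of these pathways were 81 by name, also chosen with earlier results of these data known, and 76 of them were tested. At day 3, 7 were called higher and 0 lower, at day 6 26 and 0, at day 12 13 and 1, and at day 21 6 and 0, with medians of 0.12, 0.44, 0.18, and 0.14 on the log2 scale. Of all tested genes, 2.95%, 8.42%, 4.56%, and 2.21% were called higher at these days, and the counts of this list and of its parts are to be read beside these shares. Over the mean of the 4 days, 37 were called higher and 7 lower, beside 19.2% and 17.3% of all tested genes. The genes named for the mean in these lists were chosen after their values were seen. The count at day 3 was 1 without HNKO library 2 and that at day 21 was 0 without HNKO library 37. In edgeR with all 40 libraries, 15 were called at day 6 and 4 at day 12. Of the 7 other ligands that were tested, none was called at any single day in edgeR. Over the mean, Ltb, which encodes lymphotoxin beta (0.89, SE 0.21, adjusted p = 8.01e-04), and Tnfsf13b, which encodes the B cell factor BAFF (0.62, SE 0.18, adjusted p = 0.00679), were called higher. Tnfsf10, which encodes TRAIL, was called lower (-0.18, SE 0.06, adjusted p = 0.0222). Of the 14 other receptors, 2, 7, 3, and 1 were called higher at days 3, 6, 12, and 21, and 9 over the mean, with none lower. Tnfrsf10b, the mouse receptor for TRAIL, was called at all 4 days (1.76, 2.38, 1.74, and 2.19 on the log2 scale, adjusted p = 0.0209, 0.00231, 0.0154, and 0.0127) with 4 to 35 reads in WT and 21 to 218 in HNKO livers. Tnfrsf11a, which encodes RANK, was 1.28 higher at day 6 (SE 0.25, adjusted p = 0.00102), Tnfrsf21 0.85 (SE 0.17, adjusted p = 0.00127), and Relt 1.49 (SE 0.30, adjusted p = 0.00134). Eda2r, a receptor for ectodysplasin and a known p53 target, was called at day 3 (1.37, SE 0.38, adjusted p = 0.0337) and day 12 (1.41, SE 0.37, adjusted p = 0.0179). Tnfrsf21 was called at day 12 as well (0.49, SE 0.15, adjusted p = 0.0439).

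Of the 24 adaptors and kinases, 1, 3, 2, and 0 were called higher and 1 was called lower, at day 12, which is near the shares of all tested genes, with medians of 0.00, -0.01, -0.04, and -0.06. The gene called at the first 3 days was Map3k14, which encodes NIK, the kinase of the noncanonical branch (0.73, 0.997, and 0.85 on the log2 scale, adjusted p = 0.0237, 0.00131, and 0.00558). Traf1 was called at day 6 (1.13, SE 0.33, adjusted p = 0.0207) and day 12 (1.12, SE 0.30, adjusted p = 0.0202), and Traf3, an adaptor that keeps NIK low, at day 6 (0.47, SE 0.16, adjusted p = 0.0471). Cflar, which encodes an inhibitor of caspase-8, fell by 0.34 at day 12 (SE 0.10, adjusted p = 0.0334). Over the mean of the 4 days, 5 of the 24 were called higher (Traf1, Traf2, Traf3, Birc2, and Map3k14) and 5 lower (Traf6, Map3k7, Chuk, Ikbkb, and Cflar), both near the shares of all tested genes. Their values ran from -0.38 for Chuk, a kinase subunit that phosphorylates IκB proteins, to 0.74 for Map3k14. Of the 11 other subunits and inhibitors, 1, 5, 1, and 0 were called higher, and 8 over the mean, with none lower. At day 3 this was Tnip1, a partner of A20 (0.62, SE 0.19, adjusted p = 0.0499). At day 6, Nfkbie, which encodes IκBε (0.99, SE 0.24, adjusted p = 0.00655), Tnip3 (2.33, SE 0.63, adjusted p = 0.0122), and Tnip1 (0.75, SE 0.20, adjusted p = 0.0125) had the smallest p-values. At day 12 it was Tnip3 (2.41, SE 0.61, adjusted p = 0.0153). Tnip3 had 0 to 6 reads in the WT livers of these days, so that its fold change depends on the small constant added to the counts. The HNKO livers held 6 to 50 reads at day 6 and 5 to 13 at day 12. The filter has a minimum count of 10, which WT livers reached only at day 21 (4 to 15 reads). The passage of Tnip3 through the filter thus leaned on HNKO livers, the group in which it was called higher, and its calls carry that limit.

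The 20 tested target genes were called higher in 3, 11, 7, and 5 cases and lower in none at single days. Over the mean, 13 were called higher and 1 lower, Sod2, which encodes the superoxide dismutase of mitochondria (-0.34, SE 0.06, adjusted p = 3.05e-05). Lcn2, which encodes the acute-phase protein lipocalin-2, was called at all 4 days (2.42, 4.69, 3.56, and 2.85 on the log2 scale, adjusted p = 0.0110, 3.87e-05, 4.61e-04, and 0.00981). In WT livers it averaged 4.01 ± 0.65 (SD, n = 4) log2 CPM at day 6, and in HNKO livers 8.76 ± 0.40 (SD, n = 5). Ccl2, a chemokine for monocytes, was called at days 3, 6, and 21 (2.62, 3.26, and 2.46, adjusted p = 0.0149, 0.00250, and 0.0371), and Csf1, a growth factor of macrophages, at day 3 (0.51, SE 0.16, adjusted p = 0.0481) and day 6 (0.87, SE 0.17, adjusted p = 7.45e-04). Mmp9, a matrix protease of neutrophils and macrophages, was 2.26 higher at day 6 (SE 0.40, adjusted p = 3.01e-04) and 1.40 at day 12 (SE 0.36, adjusted p = 0.0170). The neutrophil chemokines were called at days 6 and 12, Cxcl1 at 2.57 and 2.41 (adjusted p = 0.00157 and 0.00369) and Cxcl2 at 5.27 and 3.79 (adjusted p = 9.72e-04 and 0.0158), the latter with 0 to 3 reads in WT livers of both days. Nos2, the inducible nitric oxide synthase, was called at days 6, 12, and 21 (4.13, 2.56, and 2.86, adjusted p = 0.00107, 0.0296, and 0.0434), with 1 to 8 reads in WT and 8 to 60 in HNKO livers at day 21. The fitted folds of Cxcl2 and Nos2 depend on the small constant added to the counts. No WT liver reached 10 reads of either gene, the minimum count of the filter, so their passage through it leaned on HNKO livers.

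**Figure D5:**
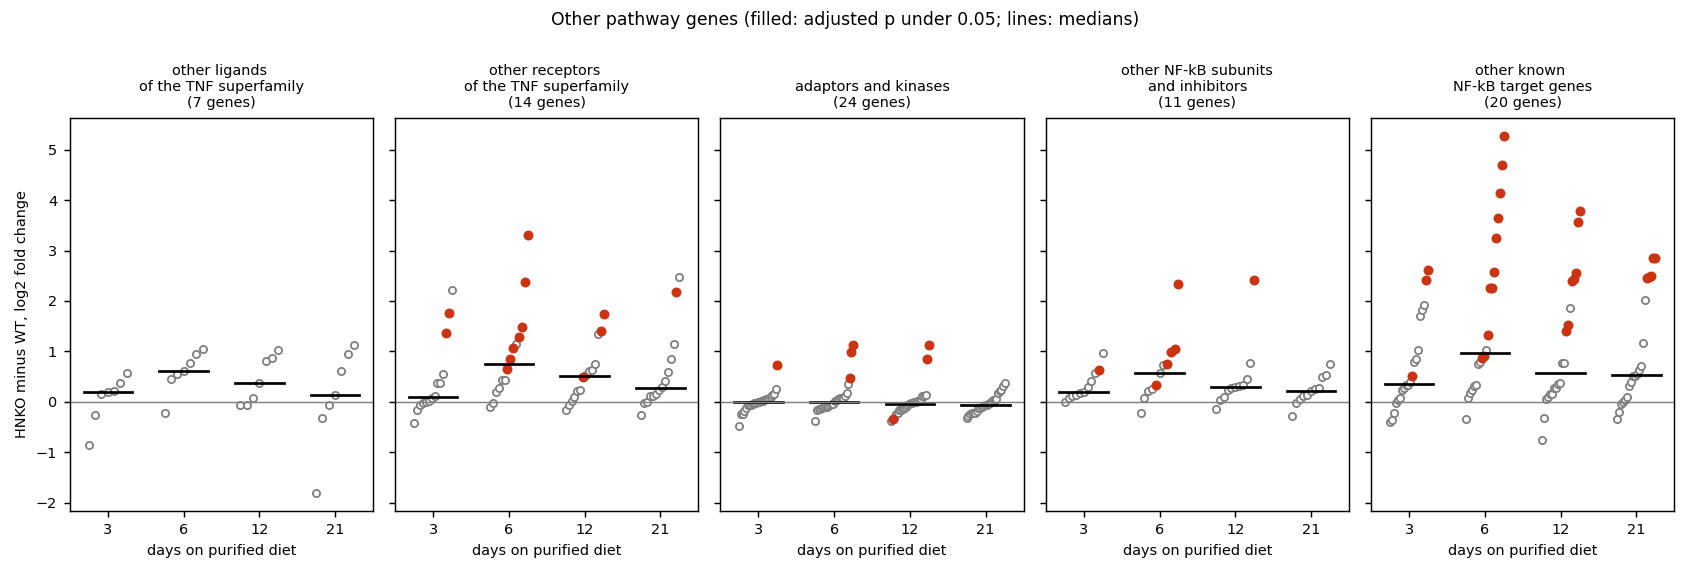
Log2 fold change (HNKO minus WT, y axis) of each tested gene of the 5 pathway lists (panels) by days on PD (x axis), filled where the adjusted p is under 0.05, with a line at each median. The target genes reach 5.27 at day 6 (Cxcl2, with 0 to 3 reads in WT livers of that day). The median of the 24 adaptors and kinases stays between -0.06 and 0.00, with Traf1 at 1.13 and Map3k14 at 0.997 at day 6.

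Markers of some other cell types also differed between HNKO and WT livers. All 4 tested monocyte markers (Ly6c2, Ccr2, Itgam, and Fcgr1) were called higher at day 6, and their summed level was 8.37 to 11.8 CPM in WT and 25.5 to 80.2 CPM in HNKO livers. Among the HNKO livers, the highest value was that of library 29, which also had the highest Tnf, Tnfrsf12a, Nfkb2, Relb, Tnfaip3, and Icam1 at that day. The lowest was that of library 6, which had the lowest values of these genes. Library 29 was also highest and library 6 lowest in the sums of neutrophil (23.3 and 5.64 CPM) and stellate cell markers (294 and 107 CPM). For hepatocyte markers, library 29 was lowest (50902 CPM) and library 6 highest (89953 CPM). Sums of cholangiocyte, Kupffer cell, lymphocyte, and endothelial markers did not have these livers at both ends. At days 3, 12, and 21, 1, 2, and 1 of the 4 monocyte markers were called higher. Of 5 neutrophil markers, 3 (S100a8, S100a9, and Retnlg) passed the filter, and these were called higher at day 6, with sums over the list of 0.800 to 1.39 CPM in WT and 5.64 to 23.3 CPM in HNKO livers. The defining markers Ly6g and Mpo had 0 reads in 28 and 26 libraries and never more than 3 and 7. Of 7 markers of Kupffer cells and macrophages, 1 was called higher at day 6 and none at the other days, with sums of 450 to 582 CPM in WT and 575 to 726 CPM in HNKO livers at day 6.

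Of 5 markers of cholangiocytes and progenitors, 4, 4, 3, and 2 were called higher at days 3, 6, 12, and 21, and at day 6 their sum was 5.21 to 6.33 CPM in WT and 11.9 to 25.96 CPM in HNKO livers. Of 5 markers of stellate cells and myofibroblasts, 2, 2, 2, and 1 were called higher. The 8 lymphocyte markers had 0 called higher and 1 lower, Ms4a1 at day 3. The summed level was 31.4 CPM in WT library 26 of that day, 6.30 to 8.04 CPM in its other WT livers, and 6.84 to 9.06 CPM in its HNKO livers. The 5 endothelial markers had 0 higher and 1 lower at each of days 6 and 12. Of the 5 hepatocyte markers, 3 were called lower at day 6, when their sum was 103780 to 115210 CPM in WT and 50902 to 89953 CPM in HNKO livers. In whole liver, more cells of a type and more RNA per cell cannot be told apart, and the part of these markers in the differences of the 10 genes was not tested.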

How the data were processed

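Libraries were prepared by the authors from rRNA-depleted total RNA with a stranded kit and sequenced as paired-end reads. Per the labels and the methods of the study, reads were aligned to GRCm38 (mm10) with STAR 2.7.2b and counted on GENCODE genes with featureCounts 1.6.4. The values are the raw count of fragments per gene as deposited by the authors, with no normalization. Whether counting used the strand is not given in the sources used here.

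Groups were taken from the sample labels, and the 2 libraries marked as failed were left out. Genes were kept by edgeR's filter (minimum count 10, minimum total 15, minimum proportion 0.7), scaled with TMM factors, and modelled with a mean for each of the 8 groups (edgeR 4.0.16 quasi-likelihood test with the older dispersion, R 4.3.3). P-values were adjusted over 20297 genes by the Benjamini-Hochberg method, and standard errors are those the test implies. Log2 CPM has a prior count of 2. The median depth was 26466478 counts, and groups held 3 to 6 livers. The labels name no litter, so p-values measure the spread between single livers.

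Symbols were matched for 55394 genes. Named are the 10 genes, Nampt, the other pathway genes with the 3 smallest p-values among those called in each list and day or called at all 4 days, and the closest of the 3 most correlated genes of each of the 10. The 10 genes and all lists were chosen with earlier results of these data known. Gene positions and exon lengths come from GENCODE M21. The fit was tested on simulated data. Alternatives were RLE size factors, no filter, all 40 libraries, the label series as a covariate, only the 2 groups of a day, DESeq2 1.42.0, and leaving out each library.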

Additional observations from a re-analysis of the deposited data

Results flagged for a closer look

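Of 70 groups of 4 to 6 livers, 2 held a liver far from the others by Dixon's test at its 95% level, where chance flags about 1 in 20. Both were in Tnfrsf1a. WT library 27 of day 6 was at 6.27 log2 CPM, above the other WT livers of that day at 6.00 to 6.04, and HNKO library 32 of day 12 was at 5.84, below the others at 6.26 to 6.47.

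The 2 HNKO libraries of day 21 that failed quality control were left out except in the alternative fit of all 40 libraries. On a scale fitted over all 40 libraries, 5 of the 10 genes lay above all WT livers of day 21 in both of them. The share of all tested genes that did so was not computed, so the count is no result about these genes. Tnfrsf1b was at 6.38 and 5.99 in libraries 17 and 18 (WT livers up to 5.56), Tnfrsf12a at 3.53 and 3.09 (WT up to 2.15), Nfkb2 at 5.05 and 4.06 (WT up to 3.66), Tnfaip3 at 3.07 and 3.13 (WT up to 2.94), and Icam1 at 4.65 and 4.63 (WT up to 4.18). For Tnfrsf1a both lay below all WT livers of day 21, at 4.90 and 5.93 (WT from 6.08). Library 17 held 0 reads of Tnf and of Relb, while library 18 lay above all WT livers in Tnf (0.02, WT up to -0.91) and Relb (2.32, WT up to 2.17). Tnfsf12 lay above them in library 17 only (2.71, WT up to 2.31). These libraries held 12287423 and 15935527 counts, less than any library used.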

How the results depend on the processing

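None of the 40 differences at single days turned in sign under the 6 alternatives or without any 1 library of the day, and none of the 10 over the mean of the 4 days did so under the 4 alternatives run for it (DESeq2 and the fits restricted to 1 day were run at single days only) or without any 1 of the 38 libraries. With all 40 libraries, the value of Relb at day 21 was 0.49 and that of Nfkb2 0.87. The number of the 10 genes called at day 12 was 1. It was 2 with RLE size factors and 2 with only the groups of the day (Tnfrsf12a and Icam1 in both). With the label series as a covariate it was 3 (Tnfrsf12a, Tnfaip3, and Icam1), and with DESeq2 4 (Tnfrsf12a, Nfkb2, Tnfaip3, and Icam1). At day 21 it was 0, and 3 with all 40 libraries (Tnfrsf12a, Nfkb2, and Icam1) and 2 with DESeq2. At day 6 it was 7, and 4 with only the groups of the day, a fit with fewer samples (without Tnfrsf12a, Nfkb2, and Relb). The day effect in HNKO livers was called for 2 genes, and for 1 with no filter. Among the other pathway genes, 7 were called at day 3, and 2 with all 40 libraries, 3 with only the groups of the day, and 11 with DESeq2. At day 6 it was 26, and 15 with all 40 libraries. At day 12 it was 14, and 4 with all 40 libraries and 8 with only the groups of the day. The share of all tested genes called in each alternative is not given here, so these changes of counts are not particular to the named genes. The cause of the changes was not tested.

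Leaving out each of the 38 libraries in turn, the 10 genes gave 0 to 2 calls at day 3, 5 to 7 at day 6, 1 to 4 at day 12, 0 to 3 at day 21, 6 to 8 over the mean, 0 to 0 for the interaction and for the day effect in WT, and 0 to 2 for the day effect in HNKO livers. The other pathway genes gave 1 to 9 calls at day 3 (1 without HNKO library 2), 18 to 30 at day 6 (18 without HNKO library 29), 9 to 17 at day 12 (9 without WT library 33), and 0 to 7 at day 21 (0 without HNKO library 37). The call of 4 at day 12 came without HNKO library 29 and that of 3 at day 21 without HNKO library 38.

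No paired analysis was possible because no library number is shared between groups. Low counts limit Tnf (3 to 101 reads per library) and the chemokines with few reads in WT livers, and day 21 is limited by its 3 HNKO livers.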
